A study of Mus musculus with 24 samples.

Results

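The cytoplasm-to-total ratio of each RNA was compared between 2 lines of mouse GT1-7 cells, to ask how the distribution of RNAs between nucleus and cytoplasm differs. GT1-7 is an immortalised line of hypothalamic neurons that make gonadotropin-releasing hormone (GnRH). One line is labelled wt and the other, Mkrn3ox, stably expresses Mkrn3 fused to green fluorescent protein (GFP). From each line total RNA and cytoplasmic RNA were taken, with 3 libraries in each of the 4 groups (wt total, wt cytoplasm, Mkrn3ox total and Mkrn3ox cytoplasm). These are 12 of the 24 libraries of the series, and all gene rows of their count table were used. For every row the log2 ratio of cytoplasmic to total RNA was taken within each line, and the wt value was subtracted from the Mkrn3ox value. This difference is called the ratio change: below 0, a row is lower in the cytoplasm relative to total RNA in Mkrn3ox cells than in wt cells. No line with GFP alone is among these groups, and the driving promoter, the number of clones behind the stable line, how the cytoplasm was separated and whether libraries of a group are separate cultures are all not given in any source used here. P-values therefore measure the spread between these libraries, which may be technical.

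Mkrn3 encodes a makorin, a protein with a RING domain that attaches ubiquitin to other proteins and with zinc fingers that bind RNA. It is known for holding back puberty: loss of its function leads to early activation of GnRH neurons. An mRNA is made in the nucleus, spliced and exported, so a cytoplasmic extract lacks nuclear-retained RNAs such as Malat1 while total RNA includes both compartments. The mRNAs of secreted and membrane proteins are translated by ribosomes docked on the endoplasmic reticulum (ER), whereas those of ribosomal and glycolytic proteins are translated mostly on free ribosomes. GnRH itself is cut from a precursor and amidated inside this secretory route.

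The 12 libraries held 374386 to 759271 counts and 8309 to 11284 detected genes, and 5033 rows passed the filter on low counts. Libraries of a group correlated at a Pearson's r of 0.848 to 0.892 on log2 CPM (counts scaled to a fixed library total), and the biological coefficient of variation was 0.384. The row of Mkrn3 held 0 to 5 counts per library and 0 in all 6 total RNA libraries, so these 3' end counts do not check the labels of the lines. The mitochondrial row mt-Nd6 took 13.9 to 23.2% of counts in the wt libraries and 8.79 to 12.1% in the Mkrn3ox libraries. Of 8 neuronal markers Nefl and Gap43 held 0 counts in every library, Stmn2 held 2 counts in all and Tubb3 0 to 5 per library, while Gnrh1 and Map1b were measured in all 12. Uchl1, a neuronal enzyme that handles ubiquitin, held 0 to 3 counts in the wt libraries and 30 to 84 in the Mkrn3ox libraries, a log2 difference of 4.88 in total RNA (adjusted p = 4.02e-05). The 8 neuronal markers summed to 450 to 699 CPM in the wt libraries and to 897 CPM or more in every Mkrn3ox library, and the part of this line difference in the ratio changes was not tested. Markers of astrocytes and oligodendrocytes summed to 0 to 38.7 CPM, with Gfap, Sox10, Olig1, Olig2 and Mog at 0. Markers of fibroblasts, endothelium and immune cells reached 100 CPM in Mkrn3ox total RNA, most of it Col1a1, with Lum, Cdh5, Pecam1, Cd68 and Aif1 at 0.

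The level of a row in this table was a poor guide to the level of the named gene in other libraries of these cells. Across the 5033 tested rows, the rank correlation with the CPM in 3 input libraries of GFP-transfected GT1-7 cells was 0.0869, and it was 0.397 over the 768 rows with no other gene within 5 kb. These correlations are across genes, which are not independent, and the libraries differ in preparation and depth. In 1281 rows a neighbouring gene was more abundant than the named gene in those inputs. The strand setting of the counting is not stated in any source at hand, so each value below is that of the named row. Whether a row counts RNA of the named gene or of a gene on the other strand was not tested. The row of Tsix, for one, held 5887 counts over the 12 libraries against 469 for its antisense gene Xist. In the inputs Tsix was at 0.266 CPM and Xist at 57.3. For the rows that passed the test, the input level of the row and of its most abundant neighbour, where it has one, stands beside the values. Rec114, Bax, Rab3a, Mkrn2, Cox6c, Mrpl57 and Taf1d, given below, also had a more abundant neighbour in the inputs.

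Of the 5033 rows, 11 passed the test of the ratio change at an adjusted p under 0.05 (0.219%). The ratio was higher in Mkrn3ox for 4 (0.0795%) and lower for 7 (0.139%). With library size alone as the scaling, which moved the median of all genes from 0.02 to 0.27, the split was 8 higher and 6 lower. Without wt total library 1, 35 rows passed. At an unadjusted p under 0.05 there were 485 rows (9.64%), 206 higher (4.09%) and 279 lower (5.54%), and 2462 rows (48.9%) had a ratio change below 0. The rows that passed were mostly abundant ones: 8 of the 11 lay in the highest quartile of mean counts, 2 in the next and 1 in the one below that. They were spread over gene lengths, with 3, 3, 2 and 3 from the shortest to the longest quartile of gene span.

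**Figure D1:**
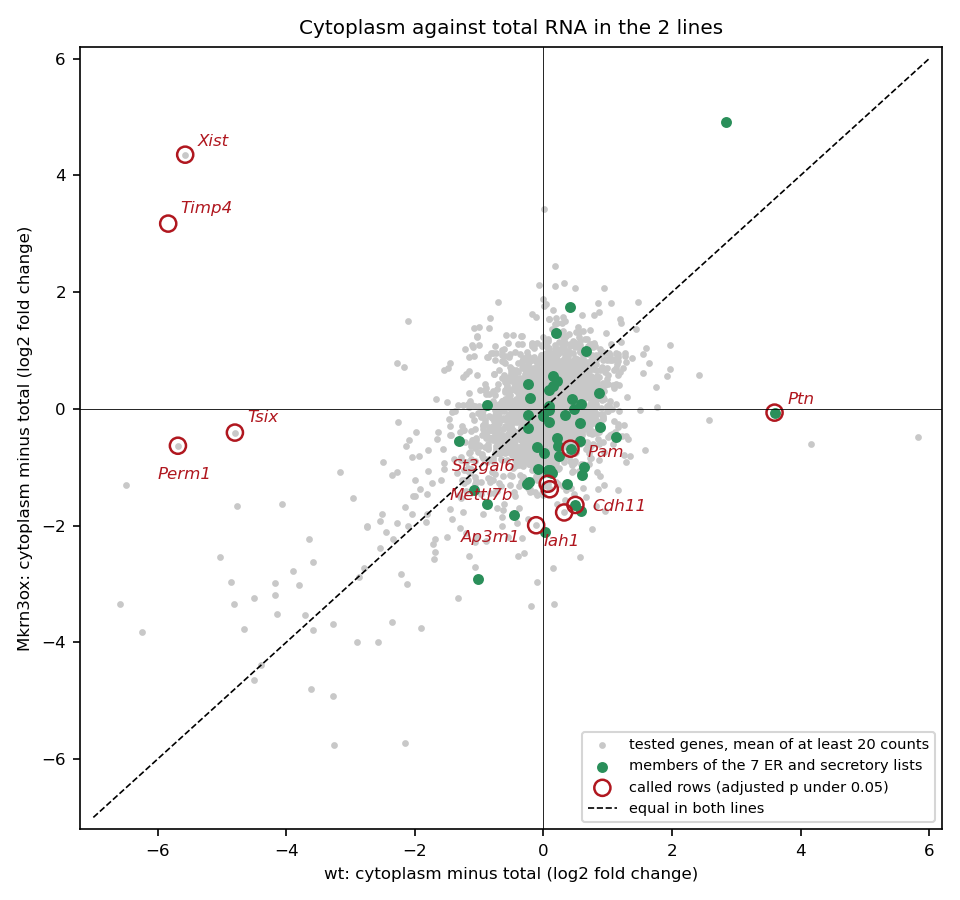
Log2 fold change of cytoplasmic against total RNA in wt cells (x axis) and in Mkrn3ox cells (y axis) for the 2485 rows with a mean of at least 20 counts (grey; 9 lie outside the axes), the members of 7 ER and secretory lists among them (green) and the 11 rows that passed the test (red circles). Of the 51 listed members, 38 lie below the dashed line of equal ratios.

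Most tested members of 7 ER and secretory lists had a ratio change below 0. That is less RNA in the cytoplasm relative to total RNA in Mkrn3ox than in wt cells. Of 78 tested members of 7 lists (prohormone processing, regulated secretion, secreted factors, matrix, adhesion receptors, ER entry and ER folding), 57 had a ratio change below 0 (73.1%), against 48.5% of the 4955 other rows. Their median ratio change was −0.79, against 0.03 in those other rows. At an unadjusted p under 0.05 there were 21 lower and 1 higher, and 3 (Ptn, Cdh11 and Pam) passed the adjusted test as lower and 1 (Timp4) as higher. Among the 4955 other rows 258 were lower and 205 higher at that unadjusted p, and 4 passed the adjusted test as lower and 3 as higher. The 7 lists name 189 genes, of which 188 were found in the count table and 78 passed the filter on low counts. The median level of these 78 rows was 60 CPM here and 252 CPM in the GFP inputs, at a rank correlation of 0.207. Over all 5033 rows the median levels were 38.4 and 69.4 CPM. These lists were joined after their medians had been seen, so the counts do not test the secretory route as a whole. Golgi and vesicle traffic (14 of 24 below 0, median −0.05) and glycosyltransferases (5 of 11, median 0.11) were left out. Levels are shares of a library, so less of an RNA per cell and fewer cells holding it cannot be told apart.

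The level of these 78 members was summarised in each library as the median of log2(CPM + 1) after subtracting each row's mean. It was 0.13, 0.14 and 0.13 in wt total RNA and 0.32, 0.32 and 0.40 in wt cytoplasm. In Mkrn3ox it was −0.03, 0.01 and 0.06 in total RNA and −0.36, −0.55 and −0.31 in the cytoplasm. The cytoplasmic libraries were thus above the total libraries in wt cells and below them in Mkrn3ox cells, without overlap in either line. The lists were joined after their medians in these same libraries had been seen, so this separation describes the chosen members and is no separate test. The median cytoplasm-to-total difference was 0.21 in wt and −0.48 in Mkrn3ox, and the median over all tested rows was 0.01 and −0.00134. Among the 51 members with a mean of at least 20 counts, 38 were below 0 with a median of −0.71, against 54.8% and −0.08 over all 2485 such rows. Among the 20 members with no other gene within 5 kb, 13 were below 0 with a median of −0.49, against 356 of all 768 such rows and a median of 0.05.

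**Figure D2:**
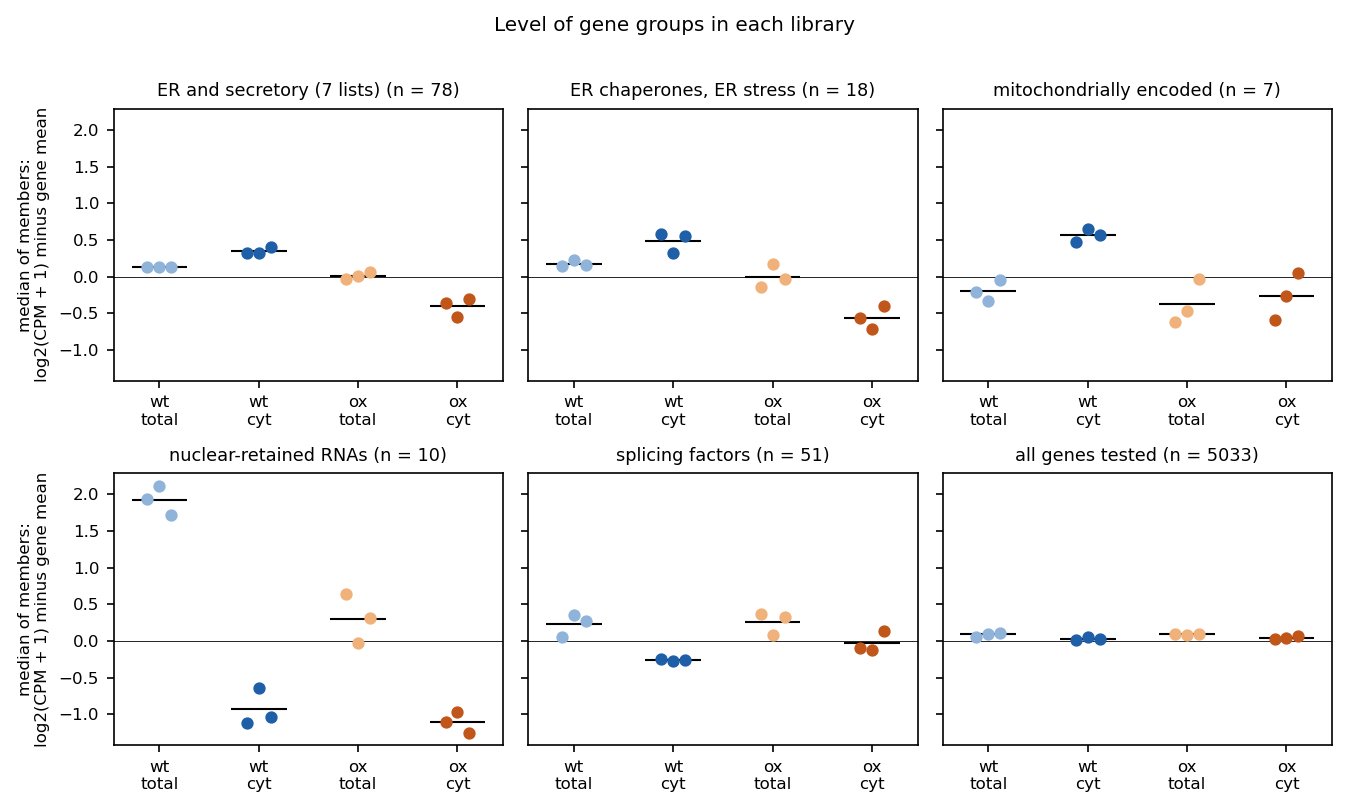
Median over the members of 6 groups of log2(CPM + 1) minus the row's mean (y axis) in each library (points) of the 4 groups (x axis, ox for Mkrn3ox, cyt for cytoplasm), with the mean of 3 libraries as a bar. In the 78 ER and secretory members the cytoplasmic libraries lie above total RNA in wt (0.32 to 0.40 against 0.13 to 0.14) and below it in Mkrn3ox (−0.55 to −0.31 against −0.03 to 0.06), while the median of all 5033 rows stays between 0.02 and 0.11. The lists of these 78 members were joined after their medians in the same libraries had been seen.

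Enzymes that process and amidate prohormones had a median ratio change of −1.36 over 6 tested members, 4 of them below 0. One passed the test, Pam, the enzyme that amidates the end of peptide hormones such as GnRH. Its row held 1005, 1150 and 1387 CPM in wt total RNA and 1850, 1628 and 1269 in wt cytoplasm. In Mkrn3ox it held 2943, 2876 and 2732 in total RNA and 1734, 1794 and 1802 in the cytoplasm. All Mkrn3ox cytoplasmic libraries were below all Mkrn3ox total libraries, while in wt the cytoplasmic libraries overlapped the total ones. The ratio change was −1.10 (SE 0.23, adjusted p = 0.0367), from a cytoplasm-to-total difference of 0.42 in wt and −0.68 in Mkrn3ox. Between the lines, the log2 difference of Mkrn3ox from wt was 1.27 in total RNA (adjusted p = 1.66e-05) and 0.17 in the cytoplasm (adjusted p = 0.5855). The row was thus higher in Mkrn3ox total RNA and not lower in Mkrn3ox cytoplasm than in wt. Pam lies on chromosome 1 at 97821091 to 98095853 (GRCm38, minus strand) and was at 743 CPM in the GFP inputs, where its neighbour B230216N24Rik was at 0.422. Its call was lost in 8 of 12 fits that left out a library (wt cytoplasm library 1 or 2, or any Mkrn3ox library), with an adjusted p of up to 0.13.

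Cpd, a carboxypeptidase that trims peptides in the trans-Golgi network, had 3 of 3 Mkrn3ox cytoplasmic libraries (150, 53.4 and 92.0 CPM) below its Mkrn3ox total libraries (243, 216 and 193). In wt its cytoplasmic libraries (370, 325 and 323 CPM) were above its total libraries (153, 232 and 285). The ratio change was −1.74 and did not pass the test (SE 0.42, adjusted p = 0.0993). No other gene lies within 5 kb of Cpd, which was at 1258 CPM in the GFP inputs. Prcp, a lysosomal carboxypeptidase, had a ratio change of −1.61 (SE 0.58, adjusted p = 0.317). Cpe, the main carboxypeptidase of secretory granules, held 6, 22 and 12 counts in wt cytoplasm and 7, 13 and 21 in wt total RNA. In Mkrn3ox it held 0 in all 3 cytoplasmic libraries and 0, 0 and 4 in total RNA, too few for a ratio in that line. Pcsk1 held 0 counts in every library, Pcsk2 0 to 4 and Qpct 0 or 1, so the convertases were not tested. Furin, a convertase of the trans-Golgi network, had a ratio change of 0.24 (SE 0.77, adjusted p = 0.947). Rab3a, a GTPase of secretory vesicles, stood at −0.44 (SE 0.29, adjusted p = 0.675).

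Secreted factors moved in both directions and their median over 13 tested members was −0.09. Ptn encodes pleiotrophin, a heparin-binding growth factor of the developing nervous system. Its row held 3.60, 3.29 and 5.36 CPM in wt total RNA, which are 2, 2 and 4 counts, and 33.6, 55.2 and 71.1 in wt cytoplasm. Values in Mkrn3ox were 556, 661 and 614 CPM in total RNA and 501, 687 and 562 in the cytoplasm. In wt the cytoplasmic libraries were all above the total ones, whereas in Mkrn3ox they overlapped. The ratio change was −3.66 (SE 0.47, adjusted p = 0.000497), and it rests on the wt difference of 3.60, since that of Mkrn3ox was −0.06. Ptn (chromosome 6, 36714924 to 36810179, minus strand) has no other gene within 5 kb and held 0 counts in the GFP inputs.

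Timp4, an inhibitor of matrix metalloproteinases, held 148, 85.7 and 87.1 CPM in wt total RNA and 2.59, 2.12 and 0 in wt cytoplasm. The Mkrn3ox libraries held 0, 0 and 1.66 CPM in total RNA and 12.5, 10.2 and 0 in the cytoplasm. The row was near absent from every group but wt total RNA, so its fitted ratio change of 9.01 (adjusted p = 0.00454) is no measure of a fold. Timp4 (chromosome 6, 115244444 to 115252205, minus strand) overlaps the synapsin gene Syn2 on the opposite strand, and in the GFP inputs it was at 0.29 CPM against 118 for Syn2. Sema3c, a secreted guidance factor, stood just outside the threshold at −1.66 (SE 0.37, adjusted p = 0.0588). Its Mkrn3ox cytoplasmic libraries (152, 140 and 109 CPM) were all below its Mkrn3ox total libraries (462, 234 and 286). Sparc, a matrix glycoprotein, had a ratio change of −1.13 (SE 0.39, adjusted p = 0.289). Its wt cytoplasmic libraries spread from 272 to 850 CPM.

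Adhesion receptors had a median of −0.73 over 12 tested members, 10 of them below 0, and Cdh11 passed the test. Cdh11 is a cadherin that joins cells of mesenchymal type and is also found in the nervous system. Its row held 456, 460 and 512 CPM in wt total RNA and 665, 682 and 670 in wt cytoplasm. Mkrn3ox total RNA held 185, 142 and 113 and its cytoplasm 32.4, 66.2 and 41.8. The cytoplasmic libraries were all above total RNA in wt and all below it in Mkrn3ox. The ratio change was −2.14 (SE 0.35, adjusted p = 0.00434), from 0.50 in wt and −1.65 in Mkrn3ox. Cdh11 (chromosome 8, 102632095 to 102785493) has no other gene within 5 kb and was at 1631 CPM in the GFP inputs. Its call remained in all 12 fits without a library, with a ratio change of −2.47 to −1.90 over all fits. Ncam1, the neural cell adhesion molecule, had a value of −1.03 (SE 0.42, adjusted p = 0.407), the integrin subunit gene Itgav −1.06 (adjusted p = 0.573) and the neural cadherin Cdh2 −1.16 (adjusted p = 0.648).

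Matrix genes had the median −1.17 over 9 tested members, 8 of them below 0, and none passed the adjusted test while 3 were lower at an unadjusted p under 0.05. Over 22 alternatives this median was −1.18 to −0.36, nearest to 0 with limma-voom. Col1a2, a chain of type I collagen, held 517, 357 and 342 CPM in wt total RNA and 448, 544 and 432 in wt cytoplasm. In Mkrn3ox it held 457, 475 and 424 in total RNA and 269, 262 and 341 in the cytoplasm, all below total RNA. Its ratio change was −0.86 (SE 0.29, adjusted p = 0.273). Fn1, fibronectin, had a ratio change of −1.88 (SE 0.73, adjusted p = 0.363), with 9.98, 12.7 and 4.18 CPM in Mkrn3ox cytoplasm against 87.7, 62.6 and 51.5 in total RNA. Fn1 was at 8914 CPM in the GFP inputs, far above its group means of 8.96 to 146 CPM here. The laminin chain gene Lamc1 had a value of −1.17 (SE 0.81, adjusted p = 0.703).

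Genes that bring proteins into the ER and fold them followed. For ER entry the median was −0.68 over 16 members, 10 below 0 and 2 of them at an unadjusted p under 0.05. Both are catalytic subunits of the oligosaccharyltransferase, which adds sugars to proteins entering the ER. Stt3a held 9.98, 17.8 and 8.36 CPM in Mkrn3ox cytoplasm and 49.4, 49.7 and 58.2 in Mkrn3ox total RNA, and in wt the fractions overlapped (69.9, 87.1 and 57.4 against 34.2, 75.8 and 100). Its ratio change was −2.14 (SE 0.67, adjusted p = 0.258), and that of Stt3b was −1.19 (SE 0.48, adjusted p = 0.398). The signal recognition particle gene Srp19 lay on the other side at 1.11 (SE 0.97, adjusted p = 0.763). This median turned to 0.13 over the 5 members without a neighbouring gene, so its direction depends on the rows used.

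For ER folding and ER stress the median was −0.97 over 18 members, 13 below 0, with 4 lower and 0 higher at an unadjusted p under 0.05 and none past the adjusted test. The median ranged from −1.36, for the 1 member without a neighbouring gene, to −0.55 with a mean of at least 20 counts. Calr, a calcium-binding chaperone of glycoproteins, held 142, 102 and 265 CPM in wt cytoplasm and 86.5, 100 and 138 in wt total RNA. In Mkrn3ox it held 29.9, 40.7 and 39.7 CPM in the cytoplasm and 51.2, 73.7 and 94.8 in total RNA. The Mkrn3ox fractions did not overlap and the wt fractions did, and the ratio change was −1.62 (SE 0.55, adjusted p = 0.271). Dnajc3, a co-chaperone of the ER, had a value of −2.32 (SE 0.75, adjusted p = 0.258) and Hsp90b1, the ER form of HSP90, −1.36 (SE 0.92, adjusted p = 0.696). Atf4, a transcription factor of the stress response whose product is not an ER protein, had the opposite sign at 1.33 (SE 0.65, adjusted p = 0.524). Its row held 107, 122 and 87.8 CPM in Mkrn3ox cytoplasm and 14.7 to 38.2 in the other 9 libraries.

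**Figure D3:**
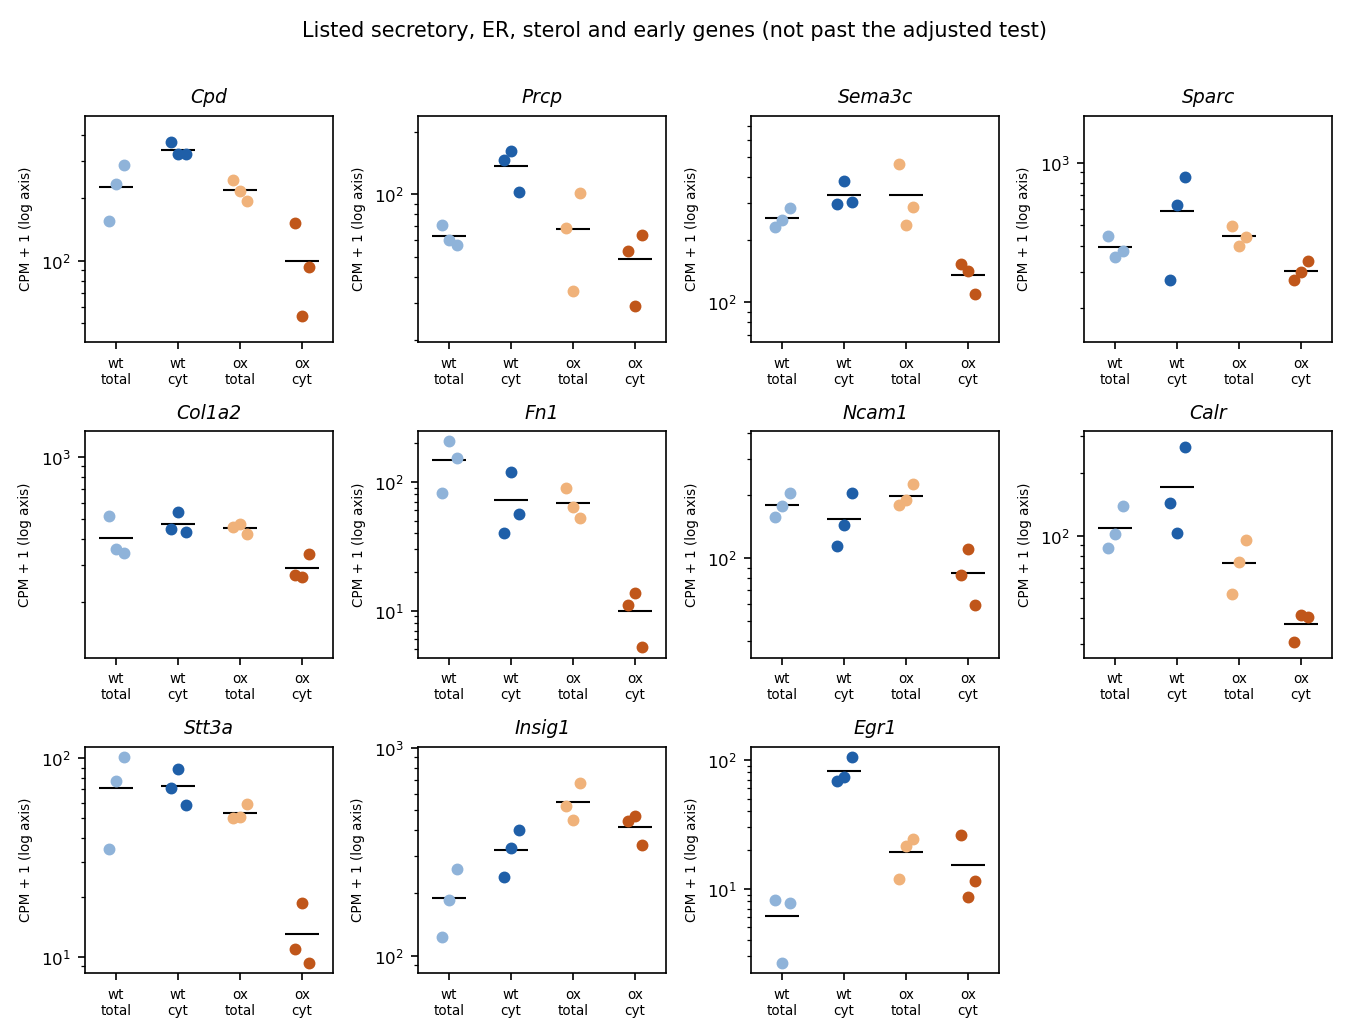
CPM + 1 on a log axis in each library (points) for 11 listed genes, none past the adjusted test, in wt and Mkrn3ox (ox) total and cytoplasmic (cyt) RNA, with the group mean as a bar. All 11 were picked from members with a ratio change below 0. Members of the same lists with the opposite sign, such as Furin, Srp19, Atf4, Igfbp5 and Jun, are not drawn. For Cpd, Sema3c, Sparc, Col1a2, Fn1, Ncam1, Calr and Stt3a every Mkrn3ox cytoplasmic library lies below every Mkrn3ox total library. For Egr1 wt cytoplasm (67.3 to 104 CPM) lies above the other 9 libraries (1.65 to 24.9 CPM).

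Beyond the ER, traffic genes of the Golgi and of vesicles had a median of −0.05 over 24 tested members, close to that of all genes, and 1 passed. Ap3m1 encodes the medium subunit of AP-3, an adaptor that sorts cargo to lysosomes and related organelles. Its row held 2056, 1252 and 1570 CPM in wt total RNA and 1656, 1360 and 1496 in wt cytoplasm. Values in Mkrn3ox were 1570, 1455 and 1463 in total RNA and 407, 382 and 339 in the cytoplasm. Only the Mkrn3ox cytoplasm stood apart, by a ratio change of −1.88 (SE 0.25, adjusted p = 0.000497). Ap3m1 (chromosome 14, 21033106 to 21052553, minus strand) was at 54.0 CPM in the GFP inputs and overlaps Vcl, the gene of the adhesion protein vinculin, on the other strand, which was at 1279 CPM there. The row of Vcl itself had a ratio change of −1.37 (adjusted p = 0.27). The COPII coat gene Sec23a had a value of −1.15 (adjusted p = 0.514), the late endosomal GTPase gene Rab7 −0.67 (adjusted p = 0.685) and the sorting receptor gene Sort1 −0.69 (adjusted p = 0.833).

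Glycosyltransferases had a median of 0.11 over 11 members, and only St3gal6, which adds sialic acid to galactose, passed. Its row held 2184, 1280 and 1483 CPM in wt total RNA and 1697, 1757 and 1728 in wt cytoplasm. The Mkrn3ox libraries held 3019, 2523 and 2573 in total RNA and 1055, 1242 and 1037 in the cytoplasm. The Mkrn3ox cytoplasm was below all other libraries, with a ratio change of −1.35 (SE 0.25, adjusted p = 0.011). The log2 difference of Mkrn3ox from wt was 0.71 in total RNA (adjusted p = 0.0126) and −0.64 in the cytoplasm (adjusted p = 0.0221). St3gal6 (chromosome 16, 58469742 to 58524260, minus strand) held 0 counts in the GFP inputs and overlaps Dcbld2, a membrane receptor gene on the plus strand, which was at 267 CPM there. The row of Dcbld2 had a ratio change of −0.50 (adjusted p = 0.866). The call of St3gal6 was lost without wt total library 3 or without Mkrn3ox total library 1, with an adjusted p of up to 0.0666.

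Mettl7b and Iah1 showed the same shape. Mettl7b, a methyltransferase-like protein of the ER and lipid droplets, held 2211, 1594 and 2018 CPM in wt total RNA and 2419, 1953 and 1868 in wt cytoplasm. Mkrn3ox total RNA held 2232, 1928 and 2386 and its cytoplasm 723, 1041 and 757, below all other libraries. Its ratio change was −1.48 (SE 0.25, adjusted p = 0.00454). Mettl7b (chromosome 10, 128958277 to 128960988, minus strand) held 0 counts in the GFP inputs, against 337 CPM for the integrin gene Itga7 that it overlaps, whose own row held 21 counts over the 12 libraries and was not tested. Iah1, an esterase, held 249, 128 and 177 CPM in wt total RNA, 220, 210 and 262 in wt cytoplasm, 318, 273 and 321 in Mkrn3ox total RNA and 94.8, 78.9 and 92.0 in Mkrn3ox cytoplasm. Its ratio change was −2.10 (SE 0.37, adjusted p = 0.00789). Iah1 (chromosome 12, 21316362 to 21323607, plus strand) was at 8.29 CPM in the GFP inputs and overlaps Adam17, a membrane protease gene on the minus strand at 130 CPM, whose own row had a ratio change of 0.22 (adjusted p = 0.877).

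**Figure D4:**
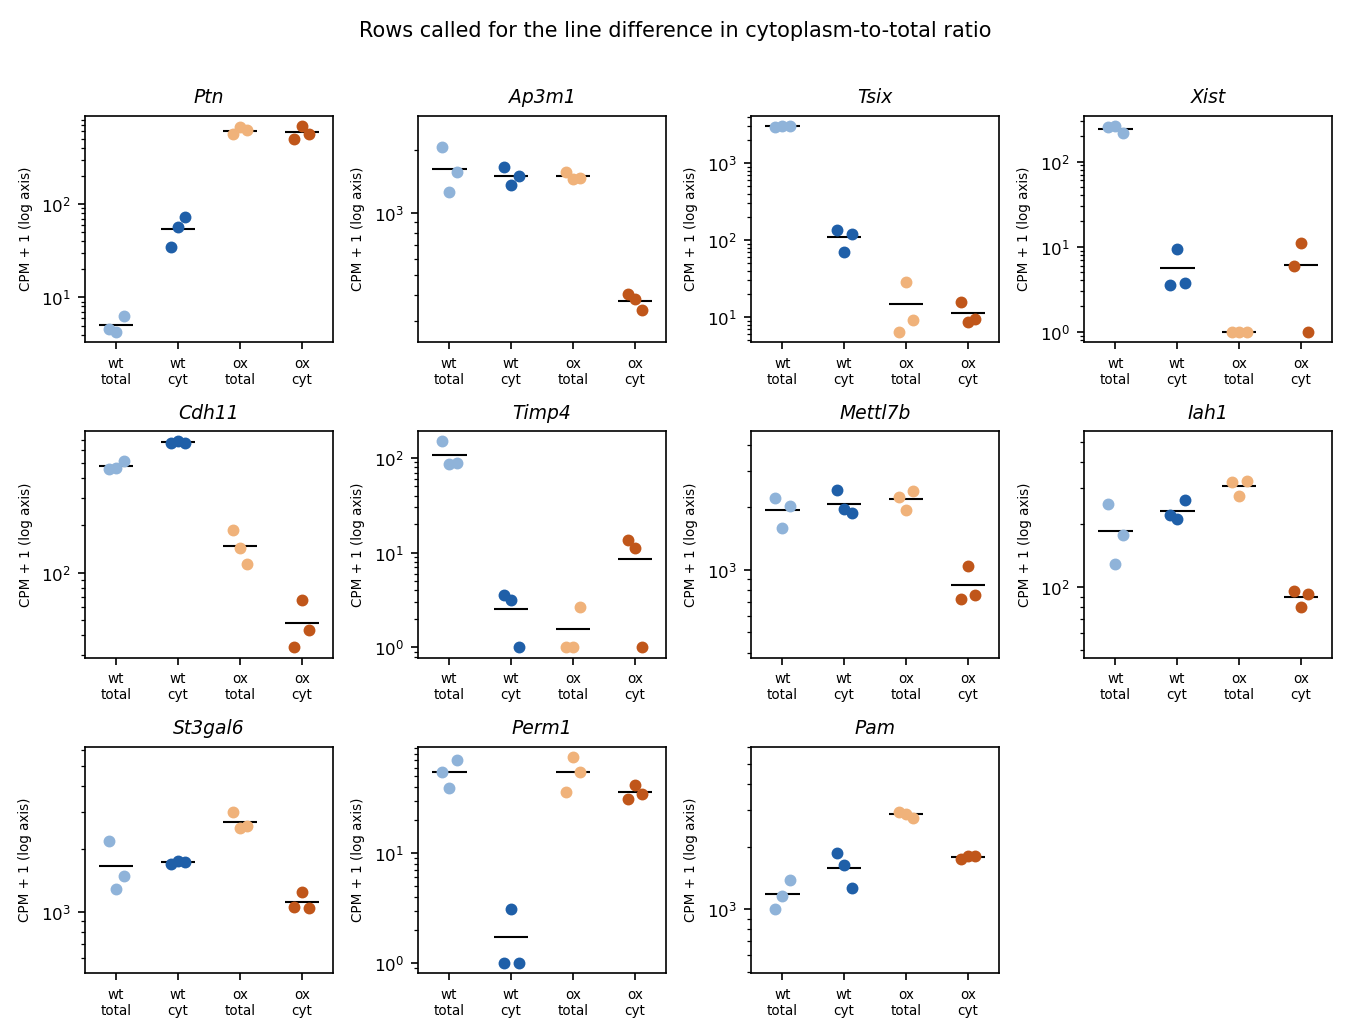
CPM + 1 on a log axis in each library (points) for the 11 rows that passed the test of the ratio change, in wt and Mkrn3ox (ox) total and cytoplasmic (cyt) RNA, with the group mean as a bar. In Ap3m1, Mettl7b, Iah1 and St3gal6 only the Mkrn3ox cytoplasm is low, while in Tsix, Xist and Timp4 wt total RNA lies far above the other 3 groups.

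Nuclear-retained RNAs had a median ratio change of 1.15 over 10 tested members, 1 of them below 0. The list includes Xist and Tsix, which held few counts in Mkrn3ox, and Norad, an RNA found largely in the cytoplasm. The median cytoplasm-to-total difference of the 10 members was −3.10 in wt and −0.62 in Mkrn3ox. The lines differed in total RNA more than in the cytoplasm. The median level of the 10 members after centring was 1.72 to 2.12 in wt total libraries and −0.03 to 0.64 in Mkrn3ox total libraries, against −1.12 to −0.64 and −1.25 to −0.98 in the cytoplasm. Summed over 6 nuclear marker RNAs, the level was 391 to 575 CPM in wt total RNA, 94.9 to 191 in Mkrn3ox total RNA, 9.69 to 15.5 in the cytoplasm of wt and 8.60 to 34.7 in that of Mkrn3ox cells. Xist, a long RNA that coats an X chromosome it silences, was the largest part of the wt total sum and held 0 counts in Mkrn3ox total RNA. The gap between the lines in that sum therefore rests largely on Xist. Malat1 held 76, 96 and 82 counts in wt total RNA and 47, 48 and 30 in Mkrn3ox total RNA. Counts of Kcnq1ot1, Firre and Neat1 overlapped between the total libraries of the lines.

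Xist held 139, 159 and 159 counts in wt total RNA and 1, 4 and 1 in wt cytoplasm. In Mkrn3ox it held 0, 0 and 0 in total RNA and 2, 4 and 0 in the cytoplasm, so that line gives no ratio for it, and the fitted change of 9.93 (adjusted p = 0.00379) is no measure of a fold. Its call was lost without Mkrn3ox cytoplasm library 2 (adjusted p = 0.0929). The row of its antisense gene Tsix held 2924, 3019 and 3036 CPM in wt total RNA and 134, 70.1 and 120 in wt cytoplasm. Values in Mkrn3ox were 5.48, 27.6 and 8.31 in total RNA and 15.0, 7.63 and 8.36 in the cytoplasm, which overlap. The ratio change was 4.39 (SE 0.69, adjusted p = 0.00379), and its Mkrn3ox side rests on 3 to 15 counts per library. Tsix (chromosome X, 103431517 to 103484957) spans the whole of Xist (103460373 to 103483233), and in the GFP inputs Tsix was at 0.266 CPM against 57.3 for Xist.

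Malat1, an RNA of nuclear speckles, had a log2 cytoplasm-to-total difference of −4.17 in wt (6.99 against 135 CPM) and −3.18 in Mkrn3ox (8.23 against 74.7 CPM). Its ratio change of 0.99 did not pass the test (SE 0.93, adjusted p = 0.788). Kcnq1ot1, an imprinted antisense RNA, had cytoplasm-to-total differences of −5.59 and −5.05. Norad, which binds Pumilio proteins and is found largely in the cytoplasm, had a ratio change of 1.74 (SE 0.78, adjusted p = 0.475). The remaining row that passed, Perm1, encodes a regulator of muscle metabolism. It held 54.0, 37.9 and 69.7 CPM in wt total RNA, 0, 2.12 and 0 in wt cytoplasm, 34.7, 73.7 and 53.2 in Mkrn3ox total RNA and 29.9, 40.7 and 33.5 in Mkrn3ox cytoplasm. Its wt cytoplasm held 1 count in all, so the fitted ratio change of 5.05 (adjusted p = 0.0329) is no measure of a fold. The call was lost without wt cytoplasm library 1 or 3, wt total library 3, Mkrn3ox cytoplasm library 2 or Mkrn3ox total library 1 or 3, with an adjusted p of up to 0.102. Perm1 (chromosome 4, 156203262 to 156221307, plus strand) was at 0.351 CPM in the GFP inputs, against 21.7 for Isg15, a neighbour on the other strand that it does not overlap.

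Rows just outside the threshold named several regulators. Ago2, the Argonaute protein that cuts target RNA, held 93.7, 100 and 85.8 CPM in wt total RNA and 44.0, 31.9 and 54.7 in wt cytoplasm. The Mkrn3ox libraries held 60.3, 70.0 and 81.5 in total RNA and 127, 176 and 150 in the cytoplasm. The cytoplasmic libraries were all below total RNA in wt and all above it in Mkrn3ox, at a ratio change of 2.20 (SE 0.47, adjusted p = 0.0512). The zinc finger factor gene Zfp148 (2.15, adjusted p = 0.0921) and the neural factor gene Sox11 (1.72, adjusted p = 0.0921) had the same sign. On the lower side were Rec114, a meiotic gene whose row overlaps the more abundant Nptn (−1.18, adjusted p = 0.0542), and the Wnt signalling gene Dvl2 (−1.56, adjusted p = 0.0594). Magea8 held 0 CPM in all wt cytoplasmic libraries and 7.63 to 109 in Mkrn3ox cytoplasm (adjusted p = 0.0594).

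Immediate early genes, which are transcribed within minutes of a stimulus, had a median of −0.80 over 9 tested members, 7 below 0 and 3 of them at an unadjusted p under 0.05. The median ranged from −2.60, over the 2 members without a neighbouring gene, to −0.15 with no filter on low counts. Egr1, a zinc finger factor of this class, held 7.21, 1.65 and 6.70 CPM in wt total RNA and 67.3, 72.2 and 104 in wt cytoplasm. Mkrn3ox total RNA held 10.97, 20.3 and 23.3 and its cytoplasm 24.9, 7.63 and 10.4. Only the wt cytoplasm stood apart, and the ratio change was −4.24 (SE 0.92, adjusted p = 0.0547). Dusp1, a phosphatase of MAP kinases, had the other shape, with 29.9, 15.3 and 27.2 CPM in Mkrn3ox cytoplasm and 49.4 to 82.2 in the other 9 libraries, and a ratio change of −1.79 (SE 0.59, adjusted p = 0.267). Jund stood at −0.99 (adjusted p = 0.462), Fosl2 at −0.95 (adjusted p = 0.582) and Jun at 0.89 (adjusted p = 0.748).

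The sterol pathway had a median of −0.68 over 14 tested members, 12 of them below 0, and none passed the adjusted test while 3 were lower at an unadjusted p under 0.05. The median log2 difference of Mkrn3ox from wt was 1.23 within total RNA and 0.39 within the cytoplasm. Insig1, which holds the sterol sensor in the ER, held 122, 184 and 261 CPM in wt total RNA and 238, 327 and 402 in wt cytoplasm. In Mkrn3ox it held 525, 448 and 672 in total RNA and 444, 468 and 339 in the cytoplasm, and fractions overlapped in both lines (ratio change −1.15, SE 0.37, adjusted p = 0.258). Hmgcs1, a synthase of the same pathway, had a value of −0.72 (SE 0.49, adjusted p = 0.703).

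All 7 tested mitochondrially encoded mRNAs were below 0, with a median of −0.56, and 2 of them at an unadjusted p under 0.05. The median cytoplasm-to-total difference of these 7 was 0.68 in wt and 0.04 in Mkrn3ox. For mt-Nd5, a subunit of complex I, wt cytoplasm held 986, 1360 and 1312 CPM against 654, 568 and 702 in wt total RNA, without overlap. In Mkrn3ox the fractions overlapped, at 317, 494 and 746 in the cytoplasm and 1139, 497 and 668 in total RNA, and the ratio change was −1.49 (SE 0.39, adjusted p = 0.133). Respiratory chain genes of the nucleus had a median of 0.46 over 32 members with 1 higher at an unadjusted p under 0.05, Atp5k, a small subunit of the ATP synthase (2.21, SE 0.52, adjusted p = 0.0921). Their median turned to −0.65 over the 3 members without a neighbouring gene.

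**Figure D5:**
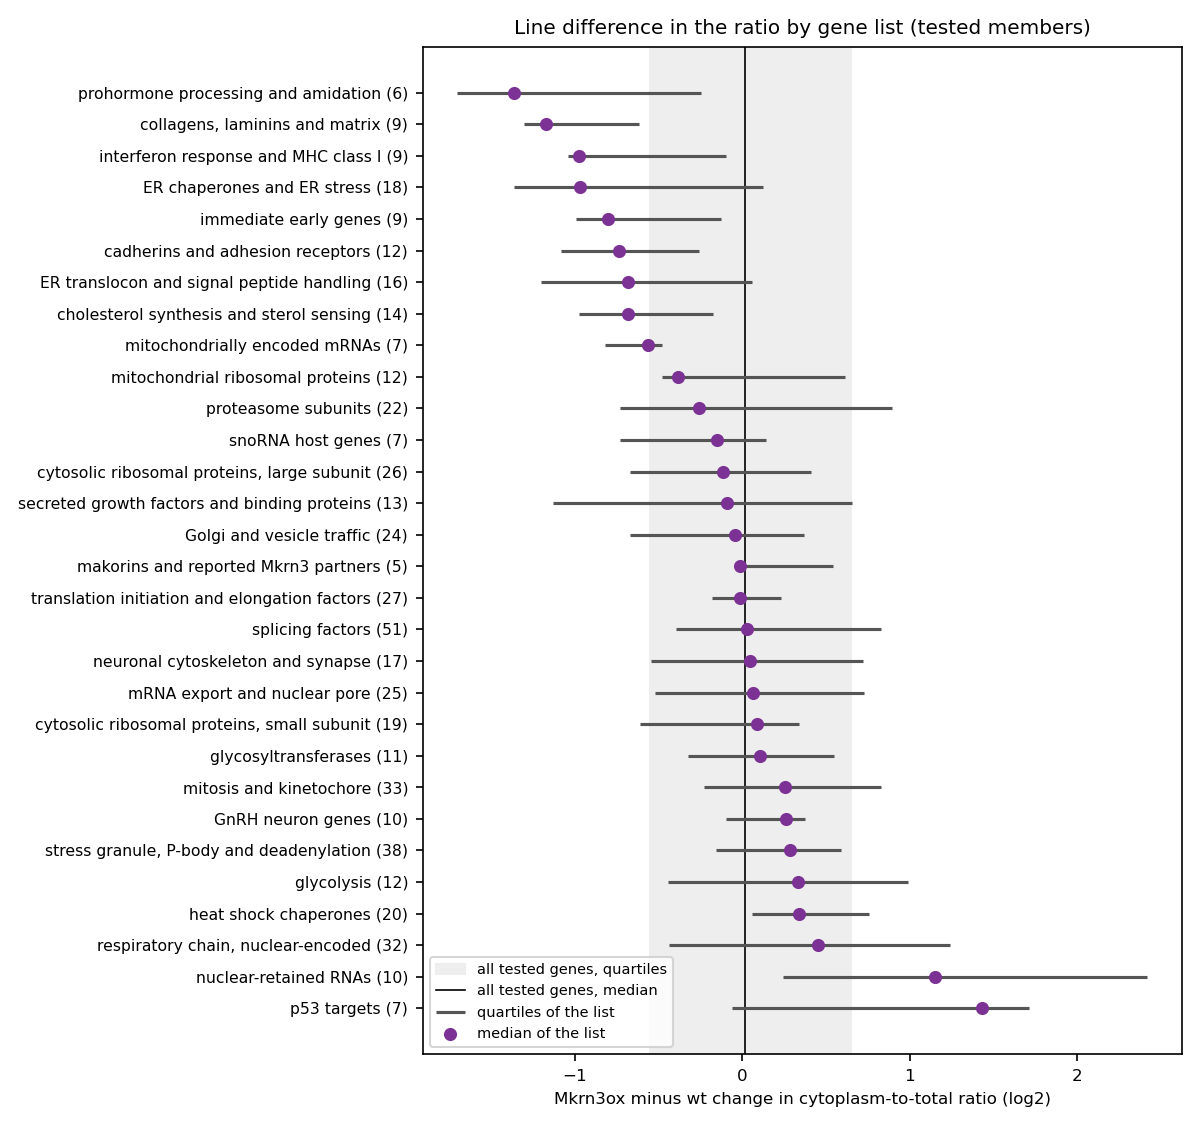
Median (purple) and quartiles (grey bars) of the ratio change over the tested members of the 30 lists with at least 5 of them, number of members in brackets, beside the median (line) and quartiles (shade) of all 5033 rows. Prohormone processing (−1.36) lies farthest to the left and p53 targets (1.43), a median that fell to 0.09 without wt total library 2, farthest to the right.

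Ribosomal, translation and splicing lists lay near the median of all genes, which was 0.02. Their medians were −0.11 for 26 proteins of the large ribosomal subunit, 0.09 for 19 of the small subunit and −0.01 for 27 translation factors, and 12 glycolytic genes had 0.33. The median of glycolytic genes turned to −0.15 with a mean of at least 20 counts. Splicing factors had a median of 0.03 over 51 members, with 5 higher and 0 lower at an unadjusted p under 0.05, among them Hnrnpr (2.28, SE 0.76, adjusted p = 0.27) and Luc7l3 (1.13, SE 0.43, adjusted p = 0.359). Components of stress granules and P-bodies, the sites of RNA storage and decay to which Ago2 belongs, had a median of 0.28 over 38 members with 3 higher and 0 lower. Ybx1, an mRNA-binding protein of these granules, held 317, 275 and 362 CPM in Mkrn3ox cytoplasm against 62.9 to 186 in the other 9 libraries (ratio change 1.01, SE 0.44, adjusted p = 0.472). Heat shock chaperones had 4 of 20 members below 0 and a median of 0.34, with none at an unadjusted p under 0.05, and the 2 without a neighbouring gene had a median of −0.33. p53 targets had a median of 1.43 over 7 members with 3 higher, of which Bax, a trigger of cell death, was at 1.43 (SE 0.47, adjusted p = 0.267). The median of p53 targets ranged from 0.09, without wt total library 2, to 1.83, for the 1 member without a neighbouring gene, and 1 member had a mean of at least 20 counts. The row of Bax was at 25.3 CPM in the GFP inputs and its neighbour Ftl1 at 184. Interferon and MHC class I genes had a median of −0.97 over 9 members, among them the peptide-loading gene Tapbp (−1.04, SE 0.28, adjusted p = 0.147). That median turned to 0.04 in the refit with a filter of a mean of at least 20 counts, where the median of all genes was 0.05. Over the 3 such members in the main fit it was −0.10, against −0.08 over all 2485 such rows. Its size thus depends on the rows used, and its sign on the scaling.

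Neither Gnrh1 nor the tested makorin genes showed a ratio change past the test. Gnrh1 held 75.7, 69.2 and 87.1 CPM in wt total RNA and 28.5, 183 and 115 in wt cytoplasm. Values in Mkrn3ox were 62.1, 68.1 and 140 in total RNA and 160, 145 and 134 in the cytoplasm. Fractions overlapped in both lines, and the ratio change was 0.19 (SE 0.63, adjusted p = 0.947). The sign turned without wt cytoplasm library 1, which held 11 counts of Gnrh1. Mkrn2, a makorin of the same family, stood at −0.04 (SE 0.38, adjusted p = 0.997), and Pabpc1, a poly(A)-binding protein and reported makorin partner, at −0.01 (SE 0.50, adjusted p = 0.9998), with signs that turned under other scalings. Among 10 tested GnRH neuron genes, with a median of 0.26, the homeobox gene Otx2 had a ratio change of −2.28 (SE 0.67, adjusted p = 0.214).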

How the data were processed

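Gene counts were measured in GT1-7 cells by CEL-seq2, which reads the 3' end of polyadenylated RNA, on an Illumina HiSeq. Per the labels' protocols RNA was extracted with TRIzol and treated with DNase, and per the submitters' processing notes reads were handled with cutadapt, STAR and HTSeq on mm10. Versions, annotation, strand setting and the treatment of molecular identifiers are stated in no source at hand. As deposited, the values are raw counts per gene, whole numbers in 57010 rows. Rows without a gene name (1606, 0.862 to 1.02% of counts) were kept in library totals. They went through the same filter and test as the named rows.

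The 12 fractionation libraries were fitted together with edgeR 4.0.16 under R 4.3.3, with TMM factors, the filterByExpr filter and 1 mean per group, and the interaction was tested in both directions by its quasi-likelihood test (two-sided), with p-values adjusted after Benjamini-Hochberg over 5033 rows. Adjusted p-values throughout are from this test unless another is named. Levels are CPM on the TMM scale, and n = 3 libraries per group. Summed marker levels and levels in the GFP inputs are instead CPM of the raw library total, without TMM factors. The fit was tested on simulated data.

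Alternatives were other scaling (size factors of DESeq2 1.42.0, or library size), TMM without mt-Nd6 and Grtp1, 2 other filters, the DESeq2 Wald test, limma-voom (3.58.1), replicate blocks, rows without neighbours, and leaving out each library. The labels do not say whether replicate numbers pair libraries. Same-number cytoplasmic and total libraries of a line correlated at 0.00385 to 0.0796 in their deviations from group means. Libraries of different number correlated at −0.128 to 0.123, so these values cannot decide it.

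Genes named are all rows that passed, a preset list, per list up to 4 members of the largest change among those averaging 20 counts or more, and the 8 rows just outside the threshold. Values of 2 genes that these rules name are not reported here. The comparison, the 34 lists and these rules were chosen with earlier results of these data known, and lists are described by counts and medians without a test. Replication-dependent histones were not found in the table under the listed names. Positions and neighbours within 5 kb are from RefSeq GRCm38.p6, matched by symbol or synonym for 4675 of the tested rows. Neighbours were compared by their CPM in the 3 input libraries of cells given 6 µg of GFP plasmid for 24 h (6947556 to 9022961 counts). Python 3.11.15, numpy 2.4.6, pandas 2.3.3 and matplotlib 3.10.9 were used for tables and figures.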

Additional observations from a re-analysis of the deposited data

Results flagged for a closer look

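For 11 rows the effect of fractionation differed between the lines by the test of the difference itself. The ratio change was −3.66 for Ptn, −1.88 for Ap3m1, −2.14 for Cdh11, −1.48 for Mettl7b, −2.10 for Iah1, −1.35 for St3gal6 and −1.10 for Pam. It was 4.39 for Tsix, 9.93 for Xist, 9.01 for Timp4 and 5.05 for Perm1. The fitted values of Xist, Timp4 and Perm1 are no measure of a fold, since a group they rest on was near 0. Those of Ptn and Tsix also rest on low counts, 2, 2 and 4 for Ptn in wt total RNA and 3 to 15 per Mkrn3ox library for Tsix. Their size is therefore uncertain. Of these, Cdh11 and Ptn have no other gene within 5 kb, Xist and Pam exceeded their neighbours in the GFP inputs, and the other 7 had a neighbour more abundant than the named gene there. Among the 1281 tested rows of that kind 0.546% passed, against 0.26% of the 768 rows without a neighbour. What these neighbours contribute to the rows was not tested.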

How the results depend on the processing

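Beside the 11 rows of edgeR's quasi-likelihood test, 43 passed with no filter on low counts, 50 with the DESeq2 Wald test and 2 among rows with no other gene within 5 kb, which is a smaller set of rows; apart from that, the cause was not tested. Leaving out 1 library gave 8 to 35 rows. The other settings gave 9 to 15. Ap3m1, Tsix, Cdh11, Mettl7b and Iah1 passed in all 12 fits without a library and under the other 9 refits. With limma-voom the calls of Ptn (adjusted p = 0.0944), Timp4 (0.0894) and Perm1 (0.104) were lost, with library size alone that of Pam (ratio change −0.839, adjusted p = 0.107), and with either block those of Perm1 and Pam. No row that passed changed direction. The replicate block gave 9 rows across groups and 13 within a line, against 11 without it, and beside Perm1 and Pam it changed no other call of the 11. The median of the 78 ER and secretory members ranged from −0.82 to −0.49.

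Named genes past no test changed sign as follows. With library size as scaling the ratio change was 0.156 for Actb, 0.146 for B2m, 0.112 for Rc3h2, 0.198 for Mkrn2 and 0.266 for Pabpc1. With a mean of at least 20 counts it was 0.0247 for Actb, 0.0362 for B2m, 0.0842 for Mkrn2 and 0.118 for Pabpc1. With limma-voom it was −1.04 for Igfbp5, −0.147 for Ndufc2, −0.0683 for Furin and −0.0787 for Taf1d. With the replicate block Taf1d was at −0.0337 across groups and −0.0222 within a line. Pabpc1 was at 0.0102 with DESeq2 size factors and 0.00922 with its Wald test. Over the fits that left out 1 library, the ratio change spanned 0: −0.183 to 2.40 for Cox6c, −2.84 to 2.71 for Igfbp5, −0.0682 to 0.823 for Hsp90ab1, −0.307 to 0.0651 for Actb, −0.894 to 0.254 for Mrpl57, −0.449 to 0.542 for Furin, −0.262 to 0.802 for Gnrh1, −0.52 to 0.112 for Rc3h2, −0.248 to 0.366 for B4galt5, −1.52 to 2.68 for Kcnq1ot1, −0.458 to 0.351 for Taf1d, −0.173 to 0.11 for Mkrn2 and −0.386 to 0.315 for Pabpc1. Protein length and N-terminal hydrophobicity were planned as descriptions and not run, as no protein sequences were used here.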
